A study of Mus musculus with 10 samples.

Results

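The genes described here encode the enzymes that make and use glutathione and thioredoxin, together with the enzymes that remove superoxide and hydrogen peroxide. They were chosen by symbol from the annotation of a mouse microarray: glutathione transferases (*Gst*, *Mgst*), glutathione peroxidases (*Gpx*), peroxiredoxins (*Prdx*), superoxide dismutases (*Sod*), thioredoxins and their reductases (*Txn*, *Txnrd*), *Nqo1*, *Cat*, *Gclc*, *Gclm* and *Gsr*. The rule found 78 of the 55681 probes on the array, which stand for 51 genes, and it used no measured value. A probe was called expressed where the scanner software placed the mouse signal well above background for 5 or more of the 10 mice. That held for 67 of the 78 probes and for 47 of the 51 genes. *Gpx5*, *Gpx6*, *Gstt4* and *Prdx6b* were well above background on 0 arrays. A gene is given below by its expressed probe with the highest signal; 32 genes had 1 probe and the others up to 5.

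RNA came from epididymal white adipose tissue (eWAT), the fat pad beside the epididymis, of 10 male wild-type mice that form a single group. The labels give the strain as C57BL/6J and, in the protocol, as C57BL/6JOlaHsd. The mice were 9 weeks old at the start, ate a low fat diet for 3 weeks and then a high fat diet for 12 weeks at 29 °C, and were killed after 2 h without food. All of them received desferrioxamine (DFO), a drug that binds iron, at 100 mg/kg daily for 5 days. Each mouse has 1 two-colour array, with the mouse's own RNA in Cy5 (red dye) and, in Cy3 (green dye), pooled RNA from every mouse of the wider study, controls included. Arrays of untreated mice were not analysed here, so no effect of DFO can be read from these values. A log2 ratio below is the level of a mouse over that pool for 1 probe. The dyes were not swapped, so the ratio also holds any dye bias of the probe, and it was not tested against 0.

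Glutathione is a small thiol made in sequential steps, the first of which is catalysed by glutamate-cysteine ligase, an enzyme with a catalytic (*Gclc*) and a modifier (*Gclm*) subunit. Glutathione peroxidases and transferases spend it on peroxides and on reactive lipids or drugs, and glutathione reductase (*Gsr*) restores it. Peroxiredoxins remove hydrogen peroxide with electrons that thioredoxin and thioredoxin reductase pass on from NADPH. Several of these genes, among them *Gclc*, *Gclm*, *Nqo1*, *Txnrd1* and *Prdx1*, are textbook targets of the transcription factor NRF2 (*Nfe2l2*), which binds the antioxidant response element in their regulatory DNA. In fat cells these enzymes are known for handling the peroxides and lipid aldehydes that arise from stored fat.

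The 10 mice did not form a uniform group. The first principal component of the 27718 expressed probes held 75.1% of their variance and set mice 4, 5, 6 and 7 apart from the other 6, with a gap of 0.51 of the range of the scores. No label sets these 4 mice apart. Between mice 4 to 7 and the others, the log2 ratios of all expressed probes had correlations over probes from -0.46 to 0.02. Among mice 4 to 7 the correlations were 0.87 to 0.94. Among the other 6 mice they ranged from 0.04 to 0.81, so those 6 were less alike. The second component held 8.81% of the variance and was led by mouse 2. Mice 3 and 4 shared a slide, as did mice 7 and 8, so the contrast is present within both slides. Markers of fat cells were low in mice 4 to 7: all 11 expressed genes of a list of 12 (*Retn* was not expressed) had their 4 lowest log2 ratios there. The mean of that list lay between -2.46 and -1.45 in mice 4 to 7 and between -0.15 and 0.73 in the others. In whole tissue, fewer cells of a type and less RNA per cell cannot be told apart. Because mice 4 to 7 were recognised from the data, their values are given mouse by mouse, and they were neither averaged nor tested as a group.

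The signal of antioxidant genes varied more over the arrays for the mouse samples than for the repeated pool. For 63 of 66 member probes that could be tested, the variance of log2 Cy5 over the 10 arrays was larger than that of log2 Cy3 (Pitman-Morgan test for paired variances, Benjamini-Hochberg adjusted p under 0.05). This is 95.5% of the member probes, and the same call was made for 59.8% of all 25049 probes tested. The median SD was 0.49 in Cy5 and 0.07 in Cy3, and the median ratio of the SDs was 7.11 for the members and 2.48 for all probes. Member probes were also brighter, with a median log2 signal of 11.2 against 8.51 for all probes tested, and the part of brightness in these shares was not tested. The 3 probes without a call were that of *Gpx2* (ratio of SDs 1.56, adjusted p = 0.17), a second probe of *Gstt1* (0.78, adjusted p = 0.34) and a second probe of *Txn2* (1.30, adjusted p = 0.51). The single probe of *Gsta2* was well above background in Cy3 on 1 array and could not be tested. Without mice 4 to 7 the call was made for 29 of 66 member probes (43.9%) and for 14.2% of all probes. With 6 arrays in place of 10 the test can call less, and the part of this in the lost calls was not tested. Without normalization between arrays it was made for 29 member probes as well, and for 18.7% of all probes.

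**Figure D1:**
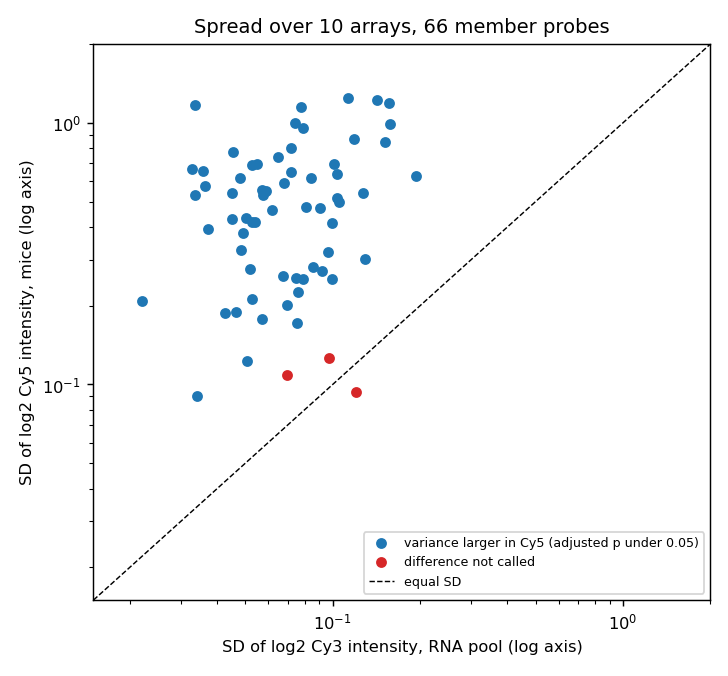
SD over the 10 arrays of the log2 Cy5 intensity (mice, vertical axis) against that of the log2 Cy3 intensity (pool, horizontal axis), both on log axes, for the 66 member probes tested. Each point is a probe, and 63 lie above the dashed line of equal SD with an adjusted p under 0.05, while the 3 red points were not called.

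Most of these genes followed the contrast between mice 4 to 7 and the others, in both directions. Mice 4 to 7 held the 4 highest log2 ratios for 11 of the 47 expressed genes (23.4%) and the 4 lowest for 22 (46.8%). Over expressed probes the shares were 19.4% and 50.7% for the members, beside 17.9% and 21.3% of all 27718. The members were brighter, as given above. Their median SD of the log2 ratio was 0.45 by gene, beside 0.18 for all expressed probes. The part of brightness and spread in these shares was not tested. When each array was only centred on the median of its probes, in place of loess, the counts were 11 and 6 genes, and 30 genes had neither pattern. Under that centring the median over the expressed probes was 0.32, with values between -0.11 (mouse 3) and 0.47 (mouse 7) for single arrays. Centred on the expressed probes instead, a setting chosen after seeing the data, the counts were 10 and 15. They were 10 and 22 without background subtraction, 10 and 23 with the scanner's own ratio and 10 and 20 of 46 genes with the authors' deposited values. The shares of all probes were worked out with loess only, so members and all probes cannot be compared under these other settings. With loess, the 11 genes highest in mice 4 to 7 were *Gclc*, *Gclm*, *Gsr*, *Txn1*, *Txnrd1*, *Nqo1*, *Prdx1*, *Prdx2*, *Prdx4*, *Gpx1* and *Gsta2*. *Gsta2* passed the filter on 5 arrays, the minimum, and overlapped under several scalings; without it the count was 10 of 46 (21.7%). Mouse 4 was the highest mouse for all 11, as it was for 32.9% of all probes with this pattern. For 8 of the 11 (7 of 10 without *Gsta2*) the order from high to low was mouse 4, 7, 5 and 6, an order that 11.1% of the 4973 probes with this pattern had.

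**Figure D2:**
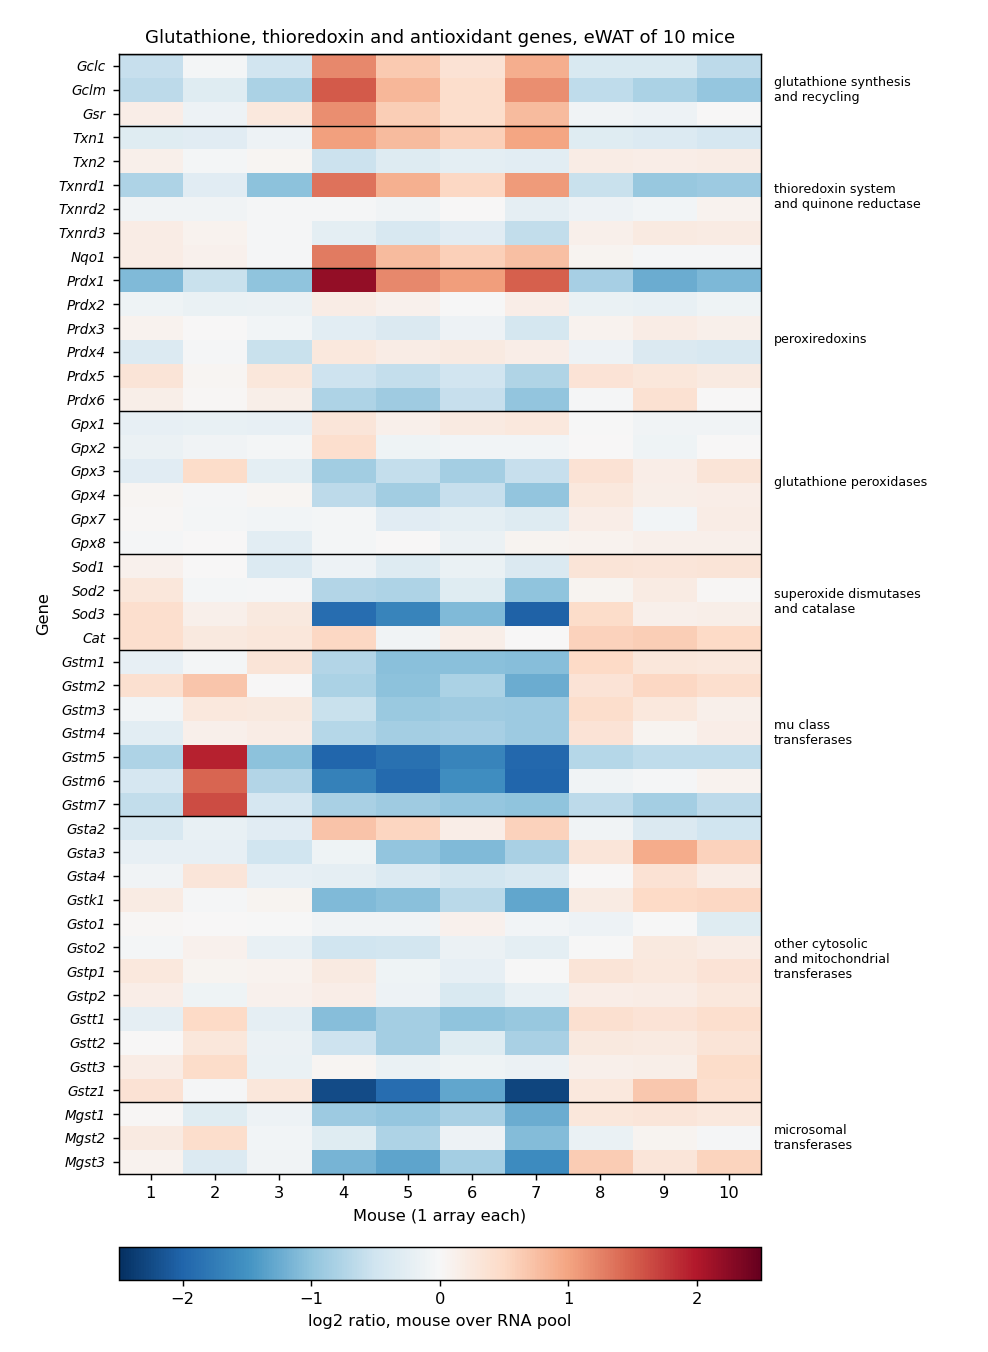
Log2 ratio to the RNA pool for the 47 expressed genes (rows, ordered by family) in each of the 10 mice (columns, 1 array each); red is above and blue below the pool. The columns of mice 4 to 7 are red for glutathione synthesis, *Txn1*, *Txnrd1*, *Nqo1* and *Prdx1* and blue for most transferases, and mouse 2 is red for *Gstm5*, *Gstm6* and *Gstm7*.

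All 3 genes of glutathione synthesis and recycling were highest in mice 4 to 7, also with the scanner's own ratio, without background subtraction and under both kinds of median centring. For *Gclm*, the modifier subunit, the log2 ratio was 1.53, 0.82, 0.44 and 1.17 in mice 4, 5, 6 and 7 and between -0.96 and -0.31 in the other 6 mice (median of all 10 -0.47). For *Gclc*, the catalytic subunit, it was 1.20, 0.65, 0.36 and 0.91 in mice 4 to 7 and between -0.66 and -0.06 in the others (median -0.22). Both subunits thus had the same order of mice 4 to 7, and neither overlapped with the other mice. For *Gsr*, the values were 1.16, 0.61, 0.44 and 0.78 in mice 4 to 7 and -0.12 to 0.26 in the others. The SD in Cy5 exceeded that in Cy3 by 13.4 times for *Gclm* (adjusted p = 3.72e-09), 13.1 times for *Gclc* (adjusted p = 1.24e-06) and 4.23 times for *Gsr* (adjusted p = 2.81e-05). Without mice 4 to 7 the adjusted p was 0.081 for *Gclc* and 0.11 for *Gsr*. *Gss*, the next enzyme of glutathione synthesis and not a member by the rule, lay between 0.20 and 0.64 in mice 4 to 7 and between -0.09 and 0.15 in the others.

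The promoters of these genes were read for the core of the antioxidant response element, since several of them are textbook targets of NRF2. The letters searched were TGACNNNGC on both strands, in RefSeq windows of 300 bases (250 before and 50 after a gene's start, GRCm38.p6). Of the 11 genes with their 4 highest values in mice 4 to 7, 9 had a window and 3 of these held the letters: *Gclm*, *Prdx1* and *Txnrd1* (in 1 of its 3 windows). Their matches are shown with 20 bases on either side, in the direction of the gene, with the match in capitals. All 3 read as the reverse complement of the motif.
Gclm (chr3:122245403-122245451, plus strand): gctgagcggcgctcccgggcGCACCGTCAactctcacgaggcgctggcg
Prdx1 (chr4:116685446-116685494, plus strand): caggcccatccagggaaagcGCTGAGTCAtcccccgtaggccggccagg
Txnrd1 (chr10:82859094-82859142, plus strand): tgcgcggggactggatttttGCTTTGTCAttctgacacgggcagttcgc
The matches begin at positions -134, -133 and -92 from the start. Of the 18 genes with a window and their 4 lowest values in mice 4 to 7, 2 held the letters, *Gstm5* and *Mgst1*, and of 14 expressed genes with neither pattern 3 did, *Gsta3*, *Gstm7* and *Sod1*. In all, 8 of 44 member genes with a window held them in at least 1 window (18.2%), beside 14.0% of all genes in the table. By window the shares were 13.8% of 58 and 12.4% of 32851. A match is a run of letters and no measured binding. *Gclc*, *Gsr*, *Gsta4*, *Gstt2*, *Prdx6*, *Prdx6b* and *Sod3* had no window in the table.

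Both cytosolic genes of the thioredoxin system were highest in mice 4 to 7, and neither mitochondrial gene was. *Txn1*, the cytosolic thioredoxin, had log2 ratios of 1.03, 0.78, 0.60 and 0.98 in mice 4 to 7 and of -0.41 to -0.14 in the others. *Txnrd1*, the cytosolic reductase, had 1.35, 0.89, 0.52 and 1.06 in mice 4 to 7 and -1.02 to -0.27 in the others (SD ratio 6.27, adjusted p = 6.36e-05). *Nqo1*, a quinone reductase, had 1.29, 0.80, 0.60 and 0.75 there and -0.04 to 0.19 in the others. None of these 3 overlapped between the mice. Without mice 4 to 7, and so with fewer arrays, the variance call was lost for each (adjusted p 0.22 for *Txn1*, 0.61 for *Txnrd1* and 0.99 for *Nqo1*).

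Of the mitochondrial partners, *Txnrd2* varied little and *Txn2* was low in mice 4 to 7. *Txnrd2*, the mitochondrial reductase, had the smallest SD of the members measured above background in Cy5 and Cy3 in all 10 mice (0.08; lowest -0.23, median -0.07, highest 0.09). Mice 4, 5 and 6 lay among the others and mouse 7 was the lowest mouse. Its variance was larger than that of the pool (SD ratio 2.65, adjusted p = 0.017), a call lost without mouse 7 (adjusted p = 0.19), without mice 4 to 7 (adjusted p = 0.45), under median centring (adjusted p = 0.81), without normalization between arrays (adjusted p = 0.59) and with slide as a block (adjusted p = 0.43). *Txn2*, the mitochondrial thioredoxin, was lowest in mice 4 to 7 (-0.54, -0.32, -0.24 and -0.26, against -0.04 to 0.18), but overlapped under both kinds of median centring. A second probe of *Txn2* lay between -0.20 and 0.12 in mice 4 to 7 and between -0.30 and 0.11 in the others, so the difference was not seen there. *Txnrd3*, known from testis, lay between -0.61 and -0.25 in mice 4 to 7 and between -0.03 and 0.23 in the others, and overlapped under both kinds of median centring.

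**Figure D3:**
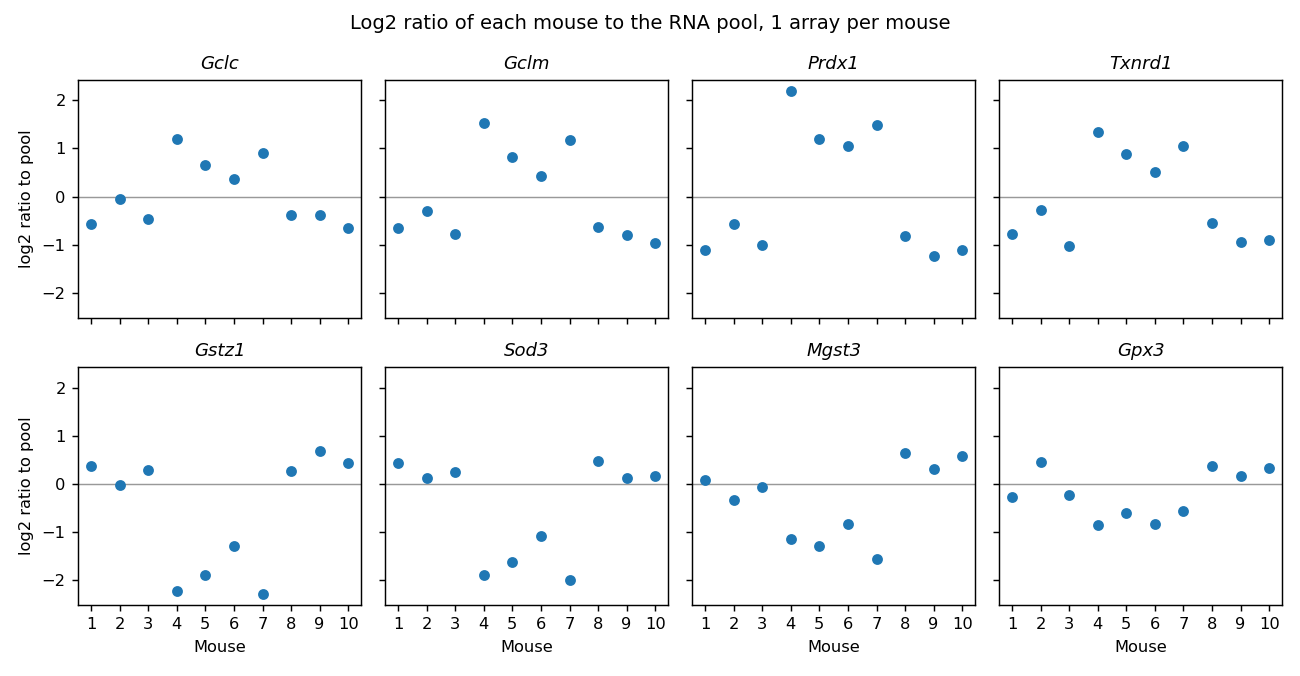
Log2 ratio to the RNA pool (vertical axis) of 8 genes in mice 1 to 10 (horizontal axis); each point is 1 array, the line marks a ratio equal to the pool. In the upper row mice 4 to 7 are the 4 highest mice for *Gclc*, *Gclm*, *Prdx1* and *Txnrd1*, and in the lower row they are the 4 lowest for *Gstz1*, *Sod3*, *Mgst3* and *Gpx3*.

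*Prdx1*, the abundant cytosolic peroxiredoxin, had the largest SD of the log2 ratio of all member genes (1.32). Its values were 2.21, 1.19, 1.05 and 1.49 in mice 4, 5, 6 and 7 and lay between -1.23 and -0.56 in the others (median of all 10 -0.69). On the slide that mice 3 and 4 shared, the values were -1.005 and 2.21, and on the slide of mice 7 and 8 they were 1.49 and -0.82. The SD was 1.18 in Cy5 and 0.16 in Cy3 (adjusted p = 1.4e-06, and 0.13 without mice 4 to 7). Its second probe gave 1.97, 1.23, 0.88 and 1.36 in mice 4 to 7 and at most -0.60 in the others. The mice of the high and the low side were therefore the same by both probes.

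The other peroxiredoxins moved less. *Prdx4*, which works in the endoplasmic reticulum, lay between 0.16 and 0.27 in mice 4 to 7 and between -0.55 and -0.03 in the others. *Prdx2*, abundant in red blood cells, was among the 4 members with the smallest SD (0.14), with values of 0.19, 0.10, -0.01 and 0.16 in mice 4 to 7 and -0.18 to -0.10 in the others. *Prdx3*, *Prdx5* and *Prdx6* were lowest in mice 4 to 7, and each of the 3 overlapped with the other mice under median centring. *Prdx3* also overlapped when centred on expressed probes and with the scanner's ratio. *Prdx3*, the mitochondrial peroxiredoxin, lay between -0.43 and -0.12 in mice 4 to 7 and between -0.06 and 0.19 in the others. The probe of *Prdx3* has 10 spots on each array, and the SD over these spots was 0.07 at the median array, a spread that holds spot noise alone and not that of labelling or hybridization. *Prdx5* lay between -0.75 and -0.47 against 0.06 to 0.33, and *Prdx6*, which reduces phospholipid peroxides, between -0.99 and -0.58 against -0.03 to 0.38.

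Glutathione peroxidases had no common direction. Of 6 expressed members, 1 had its 4 highest values in mice 4 to 7, 2 their 4 lowest and 3 neither. Under both kinds of median centring the 2 low members overlapped as well. *Gpx1*, the general cytosolic peroxidase, lay between 0.12 and 0.30 in mice 4 to 7 and between -0.20 and -0.01 in the others. *Gpx3*, the secreted form, had -0.87, -0.61, -0.85 and -0.58 in mice 4 to 7 and -0.29 to 0.46 in the others (SD ratio 15.8, adjusted p = 2.5e-07, and 0.051 without normalization between arrays). *Gpx4*, which reduces lipid peroxides in membranes, lay between -0.996 and -0.58 in mice 4 to 7 and between -0.03 and 0.26 in the others. *Gpx7* (lowest -0.33, median -0.06, highest 0.19) and *Gpx8* (-0.27, 0.01 and 0.13), both of the endoplasmic reticulum, overlapped between the mice. *Gpx2*, known from the gut lining, was dim (log2 signal 7.04) and stood at 0.42 in mouse 4 and between -0.14 and 0.02 in the others. *Gpx5*, the epididymal form, was well above background on 0 arrays, and 9 of the 11 other genes of a list for epididymis were not expressed.

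Of the superoxide dismutases, the extracellular form *Sod3* had the widest range. It stood at -1.90, -1.64, -1.10 and -2.01 in mice 4 to 7 and between 0.12 and 0.46 in the others (SD ratio 12.1, adjusted p = 4.57e-08, and 0.081 without mice 4 to 7). Mice 4 to 7 were its 4 lowest under those other scalings as well. *Sod2*, the mitochondrial form, lay between -0.996 and -0.31 in mice 4 to 7 and between -0.05 and 0.27 in the others. It overlapped under both kinds of median centring. *Sod1*, the cytosolic form (lowest -0.37, median -0.05, highest 0.33), overlapped between the mice. *Cat*, the peroxisomal catalase, had a mean of 0.32 ± 0.24 (SD, n = 10), the second highest mean of the members after *Nqo1* at 0.37 ± 0.46. The mean of *Cat* depended on the scaling and was 0.89 under median centring and 0.56 when centred on expressed probes. With loess, the lowest values of *Cat* were -0.08 in mouse 5 and 0.01 in mouse 7, but mouse 4 (0.51) lay among the higher mice.

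All 7 mu class transferase genes, which lie side by side on chromosome 3, were expressed, and their values parted into *Gstm1* to *Gstm4* and *Gstm5* to *Gstm7*. *Gstm1* had -0.72, -1.04, -1.04 and -1.06 in mice 4 to 7 and -0.20 to 0.50 in the others (SD ratio 9.02, adjusted p = 1.22e-05, and 0.11 without mice 4 to 7). *Gstm2*, *Gstm3* and *Gstm4* were also lowest in mice 4 to 7, the highest of their values there being -0.56. Mice 4 to 7 were the 4 lowest for 6 of the 7 genes, and for 4 of the 7 under median centring. The brighter of the *Gstm1* probes is annotated at chr5:117082490-117082549 (mm9) and the other at chr3:107815595-107815654, and they differed by at most 0.14 on any array.

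*Gstm5*, *Gstm6* and *Gstm7* stood out in mouse 2. For *Gstm5*, the log2 ratio was 1.93 in mouse 2, between -1.02 and -0.64 in the other 5 mice outside mice 4 to 7, and between -1.99 and -1.66 in mice 4 to 7. For *Gstm6* it was 1.46 in mouse 2, between -0.74 and 0.09 in the other 5, and between -1.99 and -1.55 in mice 4 to 7. For *Gstm7* it was 1.62 in mouse 2 and between -1.01 and -0.42 in all 9 other mice, with the mouse signal well above background on 6 arrays. *Gstm5* had the largest SD ratio of all member genes (35.0, adjusted p = 1.33e-08). Other probes gave the same mouse: 1.14 and 1.12 in mouse 2 by 2 further probes of *Gstm6*, and 0.96 by a further probe of *Gstm7*, whose 10 spots had a median SD of 0.12. *Gstm1* stood at -0.04 and *Gstm4* at 0.12 in mouse 2, and *Gstm2* at 0.69, its highest value. A list of 9 mesothelium genes was divided in mouse 2. Its keratins *Krt8*, *Krt18* and *Krt19* were highest there (1.91, 1.85 and 0.65), whereas the other 6 genes, *Msln* (-0.96), *Upk3b*, *Wt1*, *Lrrn4*, *Muc16* and *Bnc1*, were lowest there among the 6 mice outside mice 4 to 7. Among the same 6 mice, mouse 2 was highest for 9 of 12 macrophage genes and lowest for 8 of 11 fat cell genes. The part of these cells in the values of mouse 2 was not tested.

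Since the mu class genes resemble each other, the first 30 bases of the 60-base probes behind the 3 genes high in mouse 2 are shown, with that of *Gstm1* for comparison.
Gstm5 (chr3:107701101-107701160, mm9): tctcacctatgatgtcttggatcagaaccg
Gstm6 (chr3:107741766-107741825, mm9): ccatctccagagtgggaaggcccagtcttg
Gstm7 (chr3:107732073-107733247, mm9): atcagcttatggacaaccgcatggtgctgg
Gstm1 (chr5:117082490-117082549, mm9): tgttcctggtggaggagcctccccaggcct
Over all 2188 pairs of expressed probes for different member genes, the longest run of bases that 2 probes shared was 13, found between *Gstp1* and *Gstp2* and between *Gstp2* and *Txnrd2*. Binding of a probe to the transcript of a related gene was not tested. The letters TGACNNNGC were found at position -42 from the start of *Gstm5* and, in 1 of 2 windows, at -129 from that of *Gstm7*, whereas *Gstm6* had none in its window.
Gstm5 (chr3:107895792-107895840, GRCm38.p6, plus strand): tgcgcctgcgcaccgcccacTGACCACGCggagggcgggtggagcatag
Gstm7 (chr3:107931715-107931763, GRCm38.p6, minus strand): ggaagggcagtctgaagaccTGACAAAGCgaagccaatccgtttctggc

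**Figure D4:**
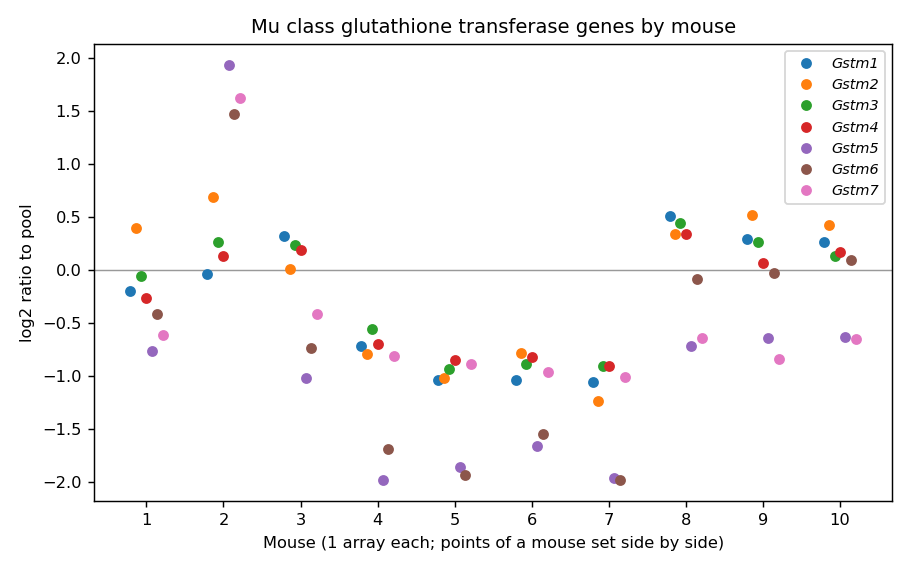
Log2 ratio to the RNA pool (vertical axis) of the 7 mu class genes in mice 1 to 10 (horizontal axis), 1 array per mouse. *Gstm5*, *Gstm6* and *Gstm7* lie between 1.46 and 1.93 in mouse 2, above all other points, and *Gstm5* and *Gstm6* are lowest in mice 4 to 7.

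Among the transferases of other classes, *Gstz1* had the widest range. This zeta class enzyme also serves tyrosine breakdown as maleylacetoacetate isomerase. It stood at -2.24, -1.90, -1.30 and -2.30 in mice 4 to 7 and between -0.03 and 0.68 in the others (SD ratio 14.8, adjusted p = 1.13e-07), and mice 4 to 7 were its 4 lowest under the other scalings as well. *Gstk1*, the mitochondrial kappa form, lay between -1.30 and -0.68 against -0.03 to 0.52, and *Gstt2*, of the theta class, between -0.86 and -0.29 against -0.16 to 0.33. Both overlapped under median centring, and *Gstt2* also when centred on expressed probes. *Gsta4*, which conjugates the lipid aldehyde 4-hydroxynonenal, lay between -0.45 and -0.23 in mice 4 to 7 and between -0.21 and 0.36 in the others, and its values overlapped without background subtraction, with the scanner's ratio and under median centring. *Gsta3* was highest in mouse 9 (0.94) and overlapped between the mice, with mouse 4 at -0.11 and mice 5, 6 and 7 at -0.98, -1.11 and -0.82. *Gsta2*, dim and measured above background on 5 arrays, lay between 0.17 and 0.72 in mice 4 to 7 and between -0.51 and -0.09 in the others, and overlapped without background subtraction, with the scanner's ratio and when centred on expressed probes.

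The probes of *Gstt1* did not give the same picture. The brighter probe (chr10:75246560-75246619, mm9) had -1.06, -0.84, -1.01 and -0.95 in mice 4 to 7 and -0.23 to 0.49 in the others, and overlapped under median centring. The dimmer probe (chr10:75259864-75259923, mm9) stayed between -0.02 and 0.22 in all 10 mice and was among the 3 without a variance call. The first 30 bases of each probe are shown because the result for this gene turns on the probe.
Gstt1, brighter probe: actataatcactactttccccttgagtctg
Gstt1, dimmer probe: tatcagagacccccagtgttctcctccctc
The pi class genes *Gstp1* and *Gstp2* and the omega class gene *Gsto1* varied least here. *Gsto1* had an SD of 0.11 (lowest -0.31, median -0.05, highest 0.11), and its variance call (adjusted p = 0.028) was lost without mouse 6 (adjusted p = 0.068), without mouse 10 (adjusted p = 0.22) and under 5 other alternatives (adjusted p between 0.055 and 0.78). *Gstp1* lay between -0.21 and 0.34, *Gstp2* between -0.38 and 0.26, *Gsto2* between -0.49 and 0.24 and *Gstt3* between -0.17 and 0.46, and all 4 overlapped between the mice.

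The microsomal transferases are membrane enzymes with glutathione transferase or peroxidase activity. *Mgst3* had -1.16, -1.31, -0.85 and -1.57 in mice 4 to 7 and -0.34 to 0.63 in the others (SD ratio 11.2, adjusted p = 4.21e-06). *Mgst1* lay between -1.23 and -0.82 in mice 4 to 7 and between -0.30 and 0.30 in the others. Both had their 4 lowest values in mice 4 to 7, and both overlapped under median centring, *Mgst1* also when centred on expressed probes. *Mgst2* (lowest -1.08, median -0.10, highest 0.44) overlapped between the mice, with mouse 6 at -0.12.

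Other genes of NRF2 signalling and thiol metabolism, from a list of 32, were read in the same way, but are given with loess only. Of 28 expressed genes, 10 had their 4 highest values in mice 4 to 7 and 8 their 4 lowest, and 20 of 28 varied more in Cy5 than in Cy3. Over all probes these shares were 17.9%, 21.3% and 59.8%, as given above. *Hmox1*, heme oxygenase, lay between 0.72 and 1.47 in mice 4 to 7 and between -1.74 and -0.93 in the others. *Srxn1*, which restores oxidised peroxiredoxins, lay between 0.48 and 1.29 against -1.37 to -0.59. *Nfe2l2* itself lay between 0.27 and 0.56 against -0.37 to -0.23, and *Keap1*, its inhibitor, between -0.23 and 0.02 against -0.01 to 0.05. The iron storage genes *Fth1* and *Ftl1*, the glutaredoxin *Glrx*, *Pgd*, *Sqstm1* and *Abcc1* completed the 10, with *Gss*. The 8 low genes were *Glrx3*, *Glrx5*, *Txnip*, *Me1*, *Sesn2*, *Sesn3*, *Sepx1* and *Vnn1*, of which *Me1*, malic enzyme, lay between -1.33 and -0.29 against -0.03 to 0.23. The margin was narrow for *Txnip* (at most -0.13 in mice 4 to 7, at least -0.11 in the others). *Slc7a11*, the cystine importer, and *Ggt1* were not expressed.

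Whether members moved together was tested over the 6 mice that the first component did not set apart, since a correlation over all 10 would mostly restate the contrast with mice 4 to 7. Of 12 pairs, 0 passed the threshold (exact permutation tests over 6 mice, two-sided, Benjamini-Hochberg over the pairs), while 3 had an unadjusted p under 0.05 by Pearson's r and 1 by Spearman's rho. The closest was *Cat* with the mean of the fat cell list (r = 0.92, exact p = 0.0042, adjusted p = 0.05, at the threshold; rho = 0.94, exact p = 0.017, adjusted p = 0.20; r = 0.80 without the 2 farthest mice). *Prdx1* and *Txnrd1* had r = 0.90 (exact p = 0.021, adjusted p = 0.13; rho = 0.66, exact p = 0.18, adjusted p = 0.48), and r was -0.24 without the 2 farthest mice. *Gclc* and *Gclm* had r = 0.86 (exact p = 0.043, adjusted p = 0.17; rho = 0.60, exact p = 0.24, adjusted p = 0.48), and r was -0.31 without the 2 farthest mice. Few mice remain without those 2, so these values cannot show what either relation rested on. With any 1 of the 6 mice left out, r was 0.69 to 0.988 for *Prdx1* and *Txnrd1* and 0.506 to 0.966 for *Gclc* and *Gclm*. In the other 9 pairs r lay between -0.65 (*Gpx1* with the macrophage list, exact p = 0.19, adjusted p = 0.45) and 0.65 (*Nqo1* and *Gclm*, exact p = 0.16, adjusted p = 0.45). Under median centring 7 pairs passed. With that centring the median over expressed probes still differed between these 6 arrays, from -0.11 in mouse 3 to 0.46 in mouse 2. Both sides of a pair share such a shift, and its part in these 7 was not tested. With the normalized values that the authors deposited 2 passed, *Prdx1* with *Txnrd1* and *Gclc* with *Gclm* (permutation test, adjusted p = 0.0167 for each). A slide holds at most 2 of these mice, too few for a value within slides.

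Markers of other cell types also differed between these mice, though not every gene of each list did. All 12 expressed genes of a macrophage list had their 4 highest values in mice 4 to 7, where its mean lay between 0.78 and 1.05, against -1.24 to -0.08 in the others. *Gpnmb* lay between 1.42 and 1.87 in mice 4 to 7 and between -2.87 and -0.76 in the others, and *Trem2* between 1.10 and 1.52 against -2.43 to 0.10. Of the fat cell markers, *Cfd* lay between -4.69 and -3.36 in mice 4 to 7 and between -0.70 and 1.45 in the others, and *Adipoq* between -2.78 and -1.63 against -0.08 to 0.81. The mean of 6 expressed genes of red blood cells lay between -1.72 and -1.11 against -0.61 to 0.50, and that of 9 mesothelium genes between -1.54 and -1.09 against -0.53 to 0.27. Mice 4 to 7 were the 4 lowest for 5 of these 6 genes and for 5 of these 9. *Slc4a1* of red blood cells and *Upk3b*, *Wt1*, *Lrrn4* and *Bnc1* of mesothelium overlapped with the other mice. The part of these cell types in the values of the antioxidant genes was not tested.

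**Figure D5:**
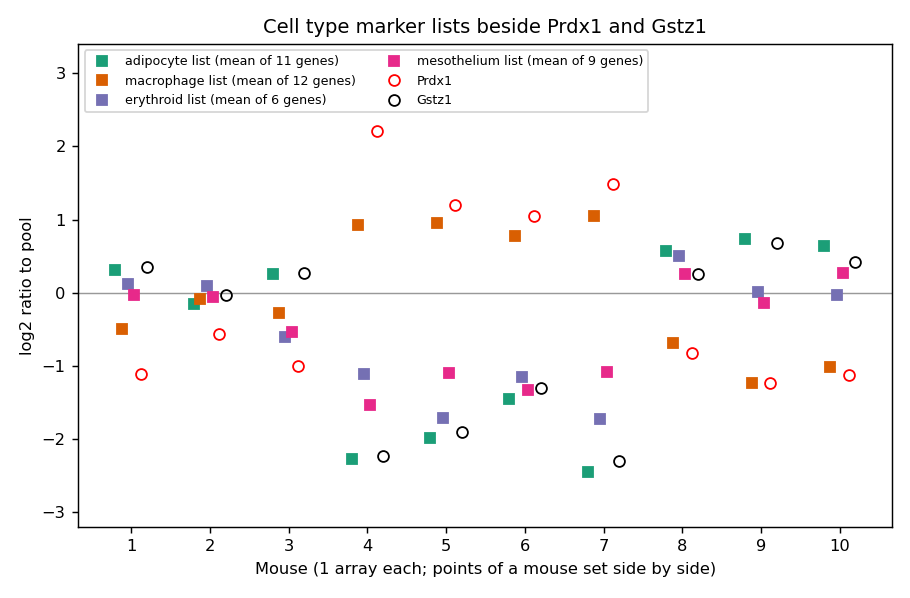
Mean log2 ratio to the RNA pool (vertical axis) of 4 marker lists (squares) and the log2 ratio of *Prdx1* and *Gstz1* (open circles) in mice 1 to 10 (horizontal axis), 1 array per mouse. In mice 4 to 7 the macrophage list and *Prdx1* are above 0 and the lists for fat cells, red blood cells and mesothelium and *Gstz1* are below -1.

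By limma's moderated F test over the 5 slides, 0 of 67 member probes passed an adjusted p of 0.05, with 3 at an unadjusted p under 0.05, and 0.0% of all 27718 probes passed, with 1136 at an unadjusted p under 0.05. When 1 mouse was left out, 0 member probes passed in each case, but those at an unadjusted p under 0.05 ranged from 1 to 33 (33 without mouse 8, 26 without mouse 7 and 15 without mouse 3). Over all probes, the number at an unadjusted p under 0.05 ranged from 236 to 5843 (without mouse 8), and 59 passed the adjusted threshold without mouse 1. Since mice 3 and 4 shared a slide, as did mice 7 and 8, the main contrast counts as spread within slides in this test. The 0 calls therefore cannot show that slides did not differ.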

How the data were processed

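RNA of 10 mice of 1 group was measured on 10 two-colour Agilent arrays (60-base probes, annotated on mm9). The deposited intensity values are the spot and local background signals of both dyes, written by Agilent Feature Extraction 10.7.3.1 and not normalized. The deposited log10 ratio of Cy5 over Cy3 is that software's own, after its background subtraction and dye normalization. The authors also deposited a log2 table of 30733 spots. The normalization is not given in the sources used here. Its columns, with medians between 8.39 and 8.44, followed the log2 Cy5 signal (r between 0.9988 and 0.9993). It therefore holds channel values and served as an alternative for differences between mice.

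Here, mean signals were background corrected (normexp, offset 50), normalized by loess within arrays and, for channel values, by Aquantile between arrays (limma 3.58.1, R 4.3.3). Control and outlier spots were left out, and spots of a probe were averaged. Between the arrays of mice 4 to 7 and the others the ratio correlated at down to -0.46. The direction was kept, since the labels state the dyes of every array. The variance of Cy5 was tested against that of Cy3 (Pitman-Morgan; probes above background in both channels on 5 or more arrays), the slide with limma's moderated F test, and 12 pairs with exact permutation tests, each with Benjamini-Hochberg adjustment at 0.05. The tests were tried on simulated data. An array's median Cy5 signal was 54.8 to 81.3 and its median background 32 to 37. No spot was saturated, and the number of arrays limits the precision.

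Labels number the mice but do not describe separate cages or litters, so the p-values concern these animals alone. The spread in Cy5 holds the preparation of each mouse's own RNA besides the animal, and these cannot be told apart. No 2 arrays held identical values. Genes named with values were the members of the pairs, the 8 with the largest and the 4 with the smallest SD, the 4 highest and 4 lowest means, genes with 1 mouse far from the others, genes whose probes disagreed, and *Gpx5*. The others are given by range. The members, lists, pairs and rules were chosen with earlier results of these data known. Alternatives were other background corrections, log ratios, centrings, filters and probes, the deposited table, and leaving out mice.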

Additional observations from a re-analysis of the deposited data

Results flagged for a closer look

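For 3 of the 47 expressed genes, 1 mouse lay far from the other 9, with a gap to its neighbour that exceeded the 95% critical value for 10 samples. Mouse 2 was highest for *Gstm5* (gap 0.656 of the range) and for *Gstm7* (0.774). Mouse 4 was highest for *Gpx2* (0.722), a dim probe whose variance did not pass the test against the pool. Chance alone gives such a gap in about 5% of groups, and it was found for 5.18% of all expressed probes.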

How the results depend on the processing

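The count of 63 member probes with larger variance in Cy5 became 29 without normalization between arrays and 29 without mice 4 to 7 (chosen after seeing the data), 51 under median centring and 58 with slide as a block, and lay between 60 and 63 when 1 mouse was left out. The 4 lowest values fell in mice 4 to 7 for 22 genes, for 6 under median centring and for 15 when arrays were centred on expressed probes. The 0 member pairs past the threshold became 1 with the scanner's ratio, 1 with the mean over all probes, 2 with the deposited table and 7 under median centring. Genes with 1 mouse far from the others numbered 10 under median centring, against 3. Slide stayed at 0 member calls in all settings run, which cannot show that slides did not differ. The cause of these changes was not tested.

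The sign of r over 6 mice turned as follows. Without the 2 farthest mice, r was -0.311 for *Gclc* and *Gclm*, -0.239 for *Prdx1* and *Txnrd1*, -0.812 for *Gpx3* and -0.451 for *Gsta4* with the fat cell list. For *Gpx3*, rho was -0.143. Under median centring, r was 0.32 for *Sod2* and 0.37 for *Gpx1* with the macrophage list and 0.956 for *Prdx2* with the red blood cell list, where the scanner's ratio gave 0.457 and the authors' deposited values 0.764. With slide as a block, r of *Gpx1* with the macrophage list was 0.843, but over all 10 mice. That value holds the contrast with mice 4 to 7 and cannot be compared with r over 6 mice. Leaving out 1 mouse gave -0.49 to 0.24 for *Prdx3* and *Txnrd2*, -0.123 to 0.861 for *Gpx3*, -0.253 to 0.942 for *Gsta4* and -0.327 to 0.232 for *Prdx2*. Leaving out a mouse among mice 4 to 7 leaves these pairs as they are. Weak signals limit *Gsta2* and *Gstm7*, whose mouse signal was well above background on 5 and 6 arrays.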
